A study of Mus musculus with 2 samples.

Results

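The 5 genes described here are *Hes1*, *Hes5*, *Hes6*, *Hey1* and *Hey2*, basic helix-loop-helix repressors of the Hes and Hey families. They were chosen by name, as rows with these symbols, and are 5 of 28001 gene rows in one single cell library and 5 of 32286 in the other. Both libraries were made from mouse embryonic forebrain (strain C57BL/6J) with 10x Genomics droplet kits, in which every caught transcript carries a unique molecular identifier (UMI). The explant library (septal explants, kit version 2, about 10000 cells loaded) pooled explants around the septum from E11.5 *PGKCre;Rosa26YFP* embryos (8, from 2 litters) and E12.5 *Dbx1Cre;Rosa26tdTomato* embryos (4, from 2 litters), although its genotype label reads wild-type. *PGKCre* is active in all tissues, so YFP marked cells of the younger embryos, whereas *Dbx1Cre* drives tdTomato in cells with a history of *Dbx1* expression only. The telencephalic library (kit version 3.1, about 20000 cells loaded) pooled the vesicles of 3 wild-type embryos from 2 litters, labelled E12 and carrying no reporter allele. Embryos were pooled before capture, so each condition was 1 library and no difference was tested. Levels are UMIs per 1000000 (CPM), summed over the cells of a class, with exact Poisson 95% intervals, and all intervals cover counting error only. Because kit, software and dissection differed, levels were not compared between libraries, only the order of classes within each.

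Notch signalling works between neighbouring cells: a ligand such as Dll1 on a differentiating cell activates Notch receptors on the next, and the cleaved receptor joins the DNA-binding factor RBPJ to switch on *Hes1*, *Hes5* and Hey genes. Their products repress proneural genes such as *Neurog2* and so keep apical progenitors (APs, the dividing cells that line the ventricle) from becoming neurons. *Hes6* belongs to the same family by sequence but opposes Hes1 and favours neuronal differentiation, and *Hey2* is best known from the heart and vessels.

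The DNA just upstream of 3 of the 5 genes is shown because Notch acts on this family through RBPJ, whose core site can be written GTGGGAA, or TTCCCAC on the other strand. The sequences are from RefSeq (GRCm38, the build of the counts), run 5′ to 3′ up to the base before the annotated start, and carry capitals wherever either string of letters occurs. *Hes5* is on the plus strand (chr4:154960673-154960922), *Hey2* on the minus strand (chr10:30842802-30843033, without the 18 bases nearest the RefSeq start, which overlap an annotated exon and lie inside the gene as GENCODE places it) and *Hes6* on the minus strand (chr1:91414039-91414288).
Hes5: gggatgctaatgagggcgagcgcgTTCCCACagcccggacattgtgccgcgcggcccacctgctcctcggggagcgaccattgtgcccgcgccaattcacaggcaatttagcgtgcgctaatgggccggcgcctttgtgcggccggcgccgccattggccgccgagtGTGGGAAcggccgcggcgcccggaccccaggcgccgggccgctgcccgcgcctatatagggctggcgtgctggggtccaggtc
Hey2: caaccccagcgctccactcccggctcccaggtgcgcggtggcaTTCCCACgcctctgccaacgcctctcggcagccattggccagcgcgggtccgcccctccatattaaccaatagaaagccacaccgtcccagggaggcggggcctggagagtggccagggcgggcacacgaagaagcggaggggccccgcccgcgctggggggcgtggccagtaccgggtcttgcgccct
Hes6: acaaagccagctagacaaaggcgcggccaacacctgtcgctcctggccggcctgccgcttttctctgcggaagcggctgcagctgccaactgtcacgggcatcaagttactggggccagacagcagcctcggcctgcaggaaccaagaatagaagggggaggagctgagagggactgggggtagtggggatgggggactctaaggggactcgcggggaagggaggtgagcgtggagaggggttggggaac
The *Hes5* window held the letters once on each strand, starting at positions -226 and -83 from the RefSeq start. The *Hey2* window held them once, at -207 from its RefSeq start, counted with the 18 bases left out. The *Hes6* window held neither, nor did the window of a second annotated *Hes6* start (chr1:91413223-91413472). Of 32851 windows of 250 bases from 27025 genes, 1779 (5.42%) held either string and 18 (0.0548%) held both. A match describes letters and does not show binding. The genes themselves lie at chr16:30064384-30067796 (*Hes1*, ENSMUSG00000022528, plus strand), chr4:154960923-154962371 (*Hes5*, ENSMUSG00000048001, plus strand), chr1:91411483-91414038 (*Hes6*, ENSMUSG00000067071, minus strand), chr3:8663359-8667256 (*Hey1*, ENSMUSG00000040289, minus strand) and chr10:30832359-30842801 (*Hey2*, ENSMUSG00000019789, minus strand). Only *Hes5* overlaps another annotated gene, the antisense transcript *Gm20421* (GENCODE vM21, GRCm38), and Cell Ranger counts reads by strand.

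Cells with outlying mitochondrial content and doublets were removed. This left 5384 cells in the explant library (median 12868 UMIs) and 11758 in the telencephalic library (median 9058 UMIs). Among all deposited barcodes, 1 occurred in both. Cells were placed in classes by marker genes that include none of the 5 members. An axis compared neuronal genes such as *Tubb3* and *Dcx* with AP genes such as *Sox2* and *Nes* (log2 of neuronal over AP UMIs). APs lay at or below -1, neurons at or above 2, and cells rich in basal progenitor genes such as *Eomes*, *Btg2* and *Gadd45g* formed a transition class (below 2) and an early neuron class (above it). The classes are ranges cut from scores rather than cell types: of 5318 explant neural cells, 737 lay within 0.5 of the AP limit and 308 within 0.5 of the neuron limit, and of 9893 telencephalic neural cells, 1105 and 504 did. The AP class held 2903 explant and 6292 telencephalic cells. APs were further divided by patterning genes into hem, septal, medial ganglionic eminence (MGE), ventral pallial (VP), pallial and other subpallial classes, which left 879 and 2746 APs in no region. The VP class held 1 explant cell and is not described there.

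*Hes1* and *Hes5*, the main Notch effectors of the forebrain, were higher in APs than in neurons by 10.6-fold or more in both libraries. In explant APs *Hes1* reached 151 CPM (148 to 155, from 7053 UMIs) and in neurons 14.2 CPM, a ratio of 10.6 (8.97 to 12.7). In telencephalic APs it reached 78.5 CPM against 5.96 CPM in neurons, a ratio of 13.2 (10.2 to 17.4). *Hes5* stood at 154 CPM in explant APs and 11.2 CPM in neurons, a ratio of 13.7 (11.4 to 16.8). In the telencephalic library it stood at 157 and 11.7 CPM, a ratio of 13.4 (11.2 to 16.3). Neither gene's intervals overlapped between the classes, and both ratios exceeded those of at least 98.2% of the genes compared. *Hes6* had the opposite order in both libraries, with 170 CPM in APs and 324 CPM in neurons of the explants and 68.9 and 131 CPM in the telencephalic library, 1.91-fold higher in neurons in each.

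*Hey1* was higher in progenitors than in neurons by less than *Hes1* and *Hes5* were, and how much depended on the library. Explant APs had 46.0 CPM and neurons 33.9 CPM, a ratio of 1.36 (1.21 to 1.53), which became 1.11 when classes were taken from clusters, with an interval that includes no difference. Telencephalic APs had 27.7 CPM and neurons 8.78 CPM, a ratio of 3.15 (2.54 to 3.96), or 1.88 with clusters. *Hey2* was rare, with 64 UMIs over all explant APs against 1 in neurons, and 99 against 2 in the telencephalic library. The ratios of 13.2 (2.29 to 530) and 3.79 (1.02 to 31.8) rest on those few molecules. Genes were compared where both classes together had at least 50 UMIs, which *Hey2* reached only through the APs, so it is not counted here. Of the other members, *Hes1* and *Hes5* were at least 2-fold higher in explant APs, where 17.2% of 12491 genes were, and *Hes1*, *Hes5* and *Hey1* in telencephalic APs, where 22% of 15754 genes were. None was at least 2-fold higher in neurons, against 18.4% and 17.2% of genes, but *Hes6* lay close to that limit. Its AP to neuron ratio was 0.406 and 0.413 with stricter limits and 0.485 with thinned telencephalic cells, all past it. With clusters the ratio was 0.747 in the explants and 0.695 in the telencephalic library, further from the limit.

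**Figure D1:**
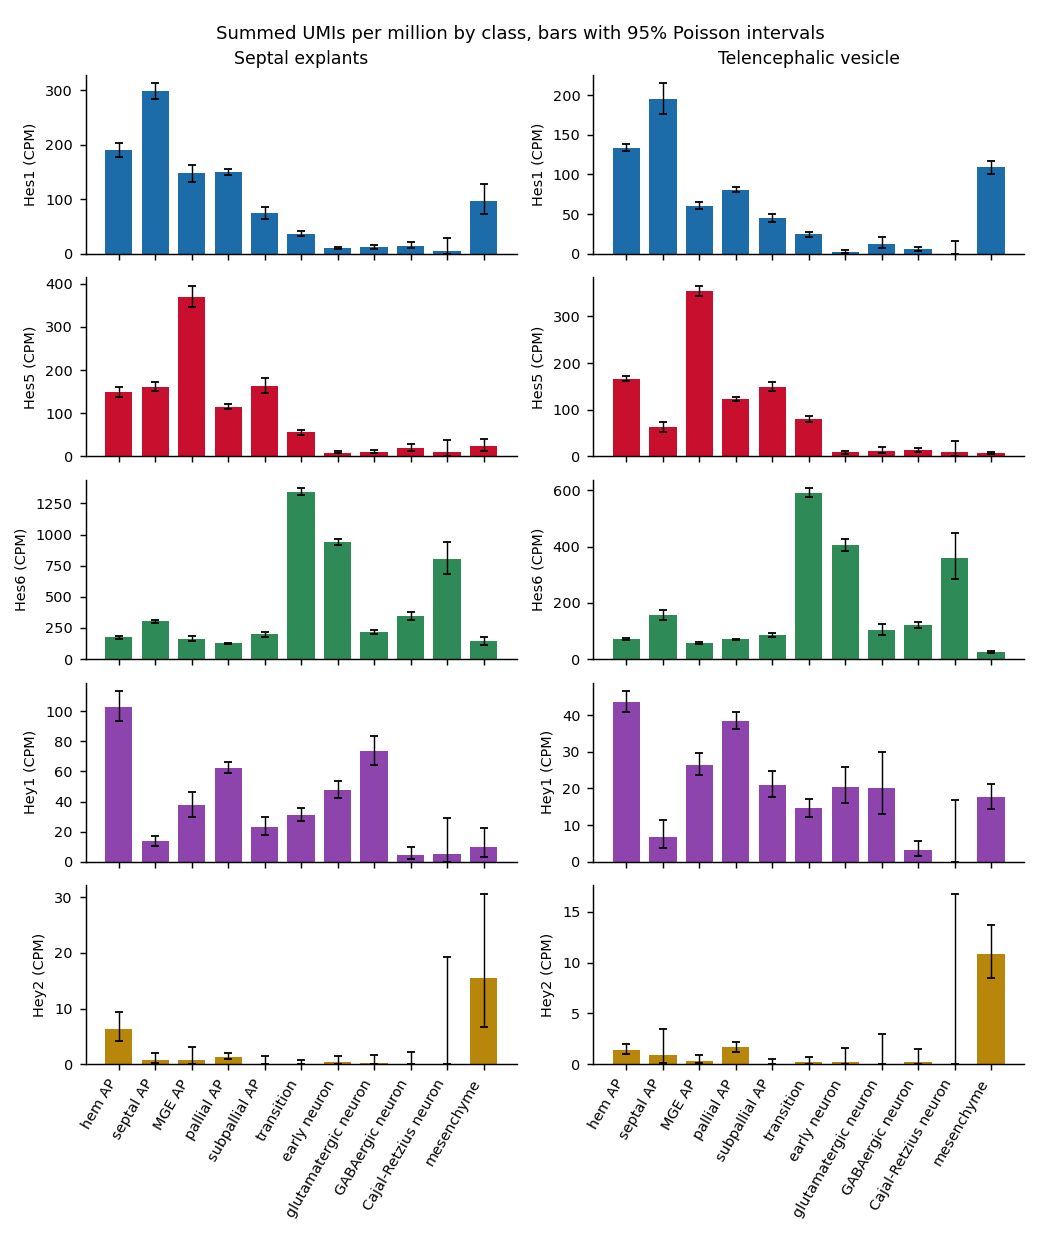
Level of each member (rows, CPM on linear axes that start at 0) in chosen classes of at least 15 cells, for the explant library (left) and the telencephalic library (right), with exact Poisson 95% intervals as error bars. VP, erythroid, endothelial and macrophage classes are not drawn. *Hes6* is highest in the transition class (1342 and 592 CPM), *Hes1* is highest among AP regions in the septal class (298 and 195 CPM) and *Hes5* in the MGE class (370 and 354 CPM).

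In droplets, free RNA gives a few UMIs to cells that do not express a gene, and erythroid cells served to gauge it. With every cell thinned to the same depth (8000 UMIs explant, 5500 telencephalic), *Hes1* was detected in 60.6% of explant APs, 9.04% of neurons and 19.2% of 26 erythroid cells. In the telencephalic library it was detected in 33.6% of APs, 3.07% of neurons and 3.03% of 198 erythroid cells. Thinning left out the other 300 of the 498 telencephalic erythroid cells, which had too few UMIs. *Hes5* gave 54.8%, 8.63% and 19.2% in the explants, and 47.8%, 5.73% and 6.57% in the telencephalic library. The neuronal shares of *Hes1* and *Hes5* did not exceed the erythroid shares beyond their intervals and are not read as expression. *Hes6* was well above it, in 85.3% of explant and 45.3% of telencephalic neurons against 30.8% and 8.59% of erythroid cells. *Hey1* was also above it in neurons, at 18.4% and 4.70% against 3.85% and 0.505%, although with 26 explant erythroid cells the intervals overlapped (15.6% to 21.4% against 0.0973% to 19.6%). Before thinning, the median depths of APs, neurons and erythroid cells were 14625, 11552 and 29046 UMIs in the explants and 11128, 6850 and 4831 in the telencephalic library, and the unthinned AP shares of *Hes1* were 76.3% and 58.0%.

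Between APs and neurons lies the step at which cells commit, and there *Hes6* had its maximum. The 528 explant transition cells held 1342 CPM of *Hes6*, 7.88-fold (7.64 to 8.13) the AP level, and the 950 telencephalic ones 592 CPM, 8.59-fold (8.30 to 8.89). After thinning it was detected in 99.5% of explant and 88.6% of telencephalic transition cells. *Hes1* was already 4.11-fold lower than in APs in the explants (36.8 CPM) and 3.22-fold lower in the telencephalic library (24.4 CPM), where erythroid cells had 34.3 CPM (22.2 to 50.6) and 10.7 CPM (7.30 to 15.1). At equal depth it was detected in 15.3% of explant and 8.13% (6.33% to 10.2%) of telencephalic transition cells, against 19.2% and 3.03% (1.12% to 6.48%) of erythroid cells. The explant transition share is thus not read as expression, and the telencephalic intervals overlap for the shares but not for the CPM. *Hes5* was 2.74-fold (56.3 CPM) and 1.96-fold (80.1 CPM) lower than in APs, with 41.2 CPM (27.8 to 58.7) and 24.0 CPM in erythroid cells. Its intervals overlapped those of erythroid cells in the explants only. At equal depth *Hes5* was detected in 24.1% (20.1% to 28.4%) of explant transition cells and in 8.63% (6.70% to 10.9%) of explant neurons. The erythroid levels themselves depended on the barcodes used. With all deposited barcodes they were 17.4 (*Hes1*) and 17.0 CPM (*Hes5*) in the explants, and 19.2 and 36.5 CPM in the telencephalic library. The readings against erythroid cells thus hold for the kept cells only. *Hey1* was 1.49-fold and 1.90-fold lower than in APs. The *Hes1* and *Hes5* levels of this class depend on its limits: with stricter ones they were 21.2 and 28.0 CPM in the explants and 11.4 and 46.0 CPM in the telencephalic library, and with clusters *Hes1* was at 17.3 and 13.9 CPM. The member at least 2-fold higher than in APs was *Hes6*, where 4.92% of explant and 5.88% of telencephalic genes were. Those at least 2-fold lower were *Hes1* and *Hes5* in the explants and *Hes1* in the telencephalic library, against 6.43% and 8.11% of genes. *Hey2* had 1 and 2 UMIs in the transition class and is not counted, since it reached the minimum only through the APs.

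Early neurons still carried much *Hes6*, at 941 CPM in the explants and 406 CPM in the telencephalic library. These were 2.90-fold (2.78 to 3.03) and 3.09-fold (2.87 to 3.34) the levels of neurons, where 3.61% and 4.83% of genes were at least 2-fold higher in early neurons. *Hey1* was 1.41-fold and 2.33-fold higher in early neurons (47.9 and 20.5 CPM) than in neurons. *Hes1* and *Hes5* stood at 10.3 and 9.15 CPM in explant early neurons and at 2.28 and 8.82 CPM in telencephalic ones, from 8 and 31 UMIs in the latter. When the telencephalic class was taken from clusters instead, these last values were 26.4 and 50.9 CPM.

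Cut into 10 bins of equal size along the axis, the same cells gave an order from its progenitor to its neuron end. *Hes1* was highest in the first, most progenitor-like bin (177 CPM explant, 119 CPM telencephalic) and lowest in the last (76 UMIs in the explants, 4.21 CPM in the telencephalic library). Its steepest step lay between bins 7 and 8 of the explants, from 106 to 17.1 CPM, and between bins 8 and 9 of the telencephalic library, from 51.6 to 6.58 CPM. *Hes5* had its steepest step at the same places, from 133 to 18.8 CPM and from 96.6 to 18.7 CPM. Before that *Hes5* was not highest at the progenitor end of the explants: it stood at 112 CPM in bin 1 and 191 CPM in bin 5. In the other library it was highest in bin 1 (176 CPM). *Hes6* stood at 143 and 52.8 CPM in bin 1, was highest in bin 8 at 1195 and 453 CPM, and stood at 316 and 131 CPM in bin 10. *Dll1*, the Notch ligand, was likewise highest in bin 8, at 246 and 175 CPM. *Hey1* had a trough in the explants, from 67.3 CPM in bin 1 to 24.4 CPM in bin 7 and 42.2 CPM in bin 9. In the telencephalic library it stood at 35.9 CPM in bin 1 and between 11.1 and 16.4 CPM in bins 7 to 10. Regions were pooled in these bins and did not lie evenly along the axis. Explant pallial clusters had axis values from -2.97 to -2.56, and MGE clusters had -1.94 and -1.73. *Hes5* and *Hey1* differ between regions, and the part of region in these changes was not tested.

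**Figure D2:**
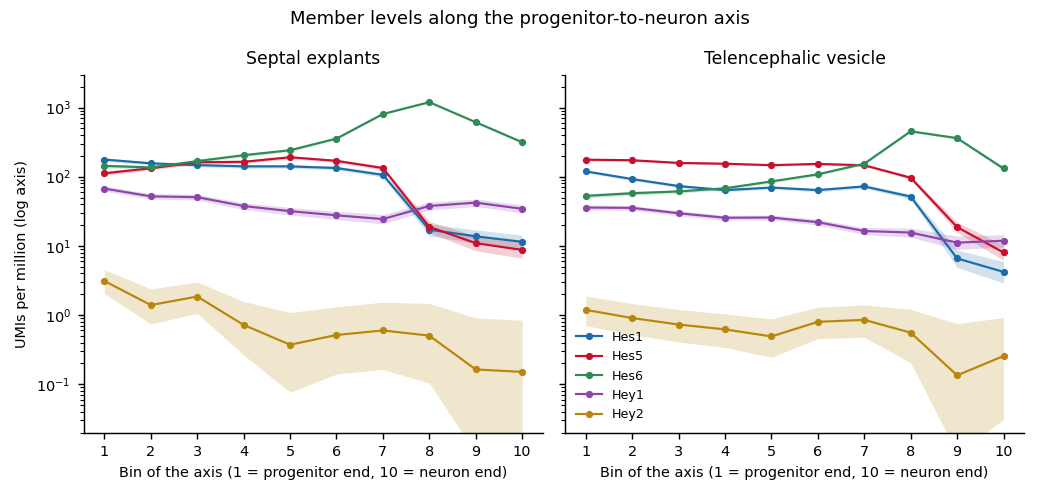
Level of each member (CPM, log axis) in 10 bins of equal cell number from the progenitor end to the neuron end of the differentiation axis, for each library, with shaded exact Poisson 95% intervals. *Hes1* and *Hes5* have their steepest step between bins 7 and 8 (explant) or 8 and 9 (telencephalic), while *Hes6* is highest in bin 8 in both.

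**Figure D3:**
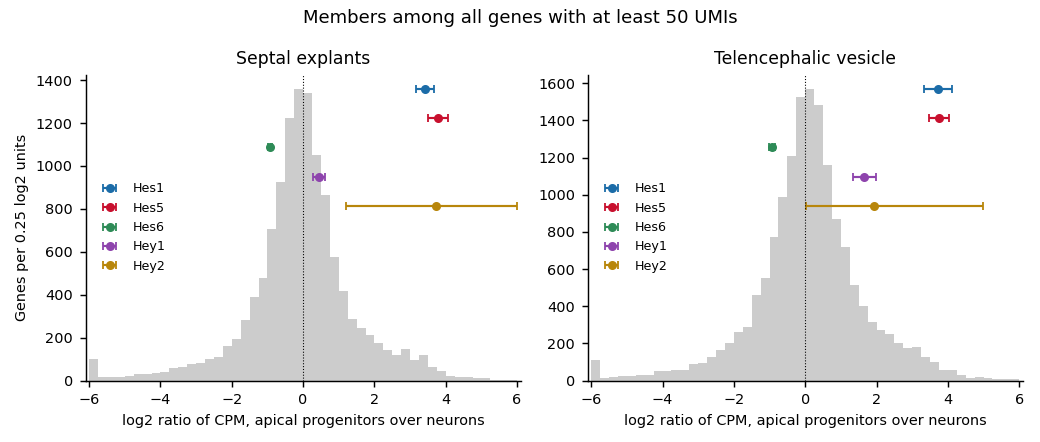
Distribution over all genes with at least 50 UMIs in both classes together of the log2 ratio of CPM, AP over neuron, for each library, with ratios beyond 6 in either direction stacked in the end bars. Marks show the members with exact 95% intervals (the upper limit of explant *Hey2* is cut at 6); *Hes1* and *Hes5* lie in the right tail, at 3.41 and 3.78 (explant) and 3.72 and 3.75 (telencephalic).

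Among AP regions, *Hes1* followed one order in both libraries at its top, with the septal class first and the hem class second. The explants gave 298 CPM in septal, 190 in hem, 151 in pallial, 147 in MGE and 74.7 in subpallial APs, where the pallial and MGE values did not differ beyond their intervals. The telencephalic library gave 195 CPM in septal, 134 in hem, 80.9 in pallial, 69.1 in VP, 60.8 in MGE and 45.2 in subpallial APs. Septal APs thus had 1.98-fold (1.87 to 2.11) and 2.41-fold (2.16 to 2.68) the *Hes1* of pallial APs. The septal class is chosen by Fgf and Zic genes and the hem class by Wnt and R-spondin genes, which mark signalling centres of the midline.

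The MGE class is named by its gate on genes such as *Nkx2-1* and *Shh*, and in the explants it comes from tissue around the septum. *Hes5* was highest in this class. It reached 370 CPM in the explants and 354 CPM in the telencephalic library, 3.20-fold (2.95 to 3.46) and 2.88-fold (2.75 to 3.01) the pallial level, where 4.32% and 5.48% of genes were at least 2-fold higher in the MGE class. Subpallial APs had 164 and 150 CPM, hem APs 149 and 166 CPM, and pallial APs 116 and 123 CPM. Telencephalic VP APs had 87.7 CPM. Septal APs had different places in the order. They stood above pallial APs in the explant library, at 161 CPM and 1.40-fold (1.29 to 1.51), which became 103 CPM and 0.969-fold with stricter limits (95 cells). In the second library they stood lowest of all regions at 62.9 CPM, 0.511-fold (0.426 to 0.610) the pallial level, and at 33.6 CPM with stricter limits.

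*Hes6* was highest in the septal class, with 302 CPM in the explants and 157 CPM in the telencephalic library, 2.37-fold (2.23 to 2.52) and 2.24-fold (1.98 to 2.52) the pallial level. Subpallial APs came next with 199 and 84.9 CPM. The hem (176 CPM) and MGE (165 CPM) classes followed in the explants, and pallial APs were lowest there (128 CPM). The explant intervals of the subpallial, hem and MGE classes overlapped one another. Among telencephalic cells hem and pallial APs (73.0 and 70.1 CPM) did not differ beyond their intervals, and MGE and VP APs were lowest (57.9 and 54.1 CPM). With clusters the explant hem and subpallial values were 282 and 326 CPM, and with stricter limits the VP value was 30.5 CPM. *Neurog2*, a proneural gene of the dorsal telencephalon, was 10.6-fold and 14.1-fold lower in septal than pallial APs.

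*Hey1* had another order across regions. Hem and pallial APs had the most, 103 and 62.5 CPM in the explants and 43.7 and 38.5 CPM in the telencephalic library. In the explants hem exceeded pallial APs by 1.65-fold (1.47 to 1.84). In the telencephalic library the difference was 1.13-fold (1.04 to 1.24) and turned to 0.989-fold with clusters, 0.916-fold with stricter limits and 0.980-fold with thinned cells. MGE APs followed with 37.4 and 26.5 CPM, and septal APs had the least, at 13.6 and 6.83 CPM, 4.61-fold (3.67 to 5.86) and 5.64-fold (3.35 to 10.4) below pallial APs. With clusters the subpallial class was lowest in the explants (18.5 CPM) and the VP class in the telencephalic library (20.5 CPM), where no cluster was septal. *Hey1* was the member at least 2-fold lower in septal than pallial APs in both libraries, as were 2.86% and 5.23% of genes. The members at least 2-fold higher in septal APs were *Hes6* in the explants and *Hes1* and *Hes6* in the telencephalic library, against 6.98% and 9.42% of genes.

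*Hey2* had too few molecules for a full order. Explant hem APs held 26 UMIs in 226 cells (6.36 CPM), and pallial APs 26 UMIs in 1060 cells (1.41 CPM), a ratio of 4.52 (2.52 to 8.10), in a comparison where 4.22% of genes (7.39% in the telencephalic library) were at least 2-fold higher in the hem. In the explants *Hey2* reached the minimum of 50 UMIs only because of its hem level, so it is not counted among them. Clusters gave 3.33 and 2.29 CPM for these classes and stricter limits 3.56 and 2.71 CPM. Among cells of the vesicle hem and pallial APs did not differ beyond counting error (31 and 47 UMIs, 0.861, 0.529 to 1.38). No *Hey2* UMI was seen in the 164 explant or 409 telencephalic subpallial APs, which allows levels of up to 1.24 and 0.46 CPM (3 counts).

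Because *Hes1* and *Hes5* led in different regions, their UMIs were also set against each other, a ratio that is read between classes and not as a comparison of the genes' levels. In the explants it ran from 0.541 *Hes5* UMIs per *Hes1* UMI (0.499 to 0.586) in septal APs through 0.769 in pallial and 0.784 in hem APs to 2.19 in subpallial and 2.51 (2.22 to 2.86) in MGE APs. In the telencephalic library it ran from 0.323 (0.262 to 0.394) in septal through 1.24 in hem, 1.27 in VP, 1.52 in pallial and 3.31 in subpallial to 5.83 (5.38 to 6.33) in MGE APs. Septal APs were lowest and MGE APs highest in both, and the subpallial and MGE values did not differ beyond their intervals in the explants. Transition cells had a higher ratio than APs, 1.53 against 1.02 in the explants and 3.29 against 2.01 in the telencephalic library. In the kept cells, however, *Hes1* of explant transition cells did not exceed the erythroid level beyond its interval.

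**Figure D4:**
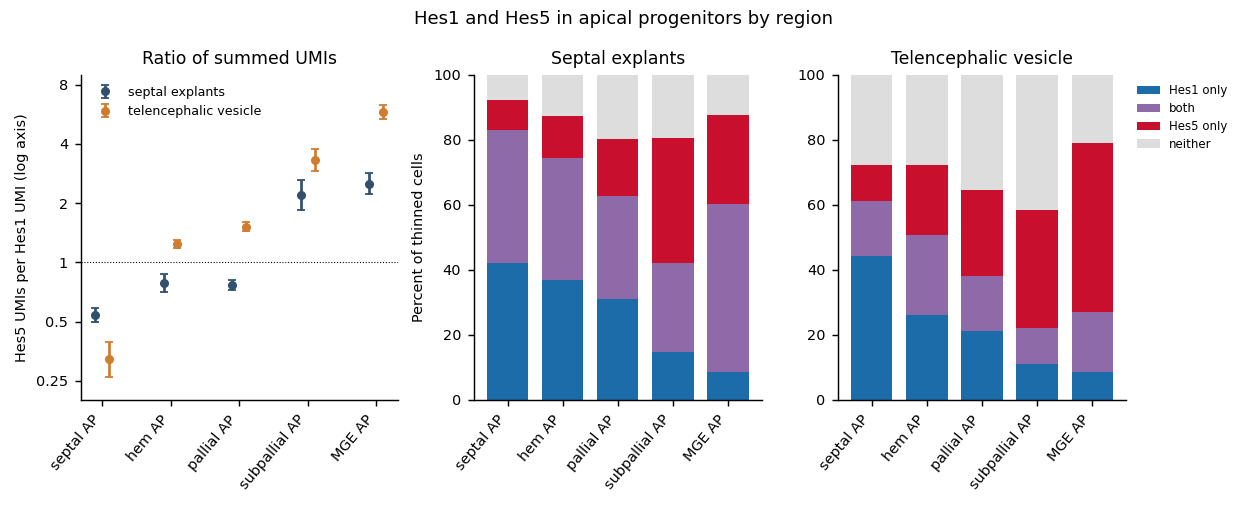
*Hes5* UMIs per *Hes1* UMI by AP region (left, log axis, exact 95% intervals) and, for each library, the percent of thinned cells with both, one or neither gene detected (stacked bars). Septal APs have the lowest ratio (0.541 and 0.323) and MGE APs the highest (2.51 and 5.83).

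Cell by cell, at equal depth, both genes were detected in 33.3% of explant APs, *Hes1* alone in 27.3%, *Hes5* alone in 21.5% and neither in 17.9%. In cells of the vesicle these shares were 16.2%, 17.4%, 31.6% and 34.8%. *Hes1* alone was frequent in the septal class (42.1% and 44.1%) and rare in the MGE class (8.50% and 8.54%), where *Hes5* alone took 27.5% and 51.9%. Within APs as a whole, *Hes5* was detected as often in cells with *Hes1* as in cells without. The shares were 54.9% against 54.6% in the explants and 48.3% against 47.6% in the telencephalic library, with regions pooled. Within explant regions they had overlapping intervals, from 85.9% against 68.9% in MGE APs to 49.4% against 54.0% in septal APs. No p-value is given, because cells of 1 library are not replicates.

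Among neurons, *Hey1* differed between the glutamatergic and GABAergic classes. It was found in glutamatergic neurons at 73.6 CPM in the explants (240 UMIs, 257 cells) and 20.2 CPM in the telencephalic library (25 UMIs, 164 cells), and in GABAergic neurons at 4.82 CPM (8 UMIs) and 3.18 CPM (12 UMIs). The ratios were 15.3 (7.62 to 35.8) and 6.35 (3.07 to 13.9). In the explants 5.63% of genes were at least 2-fold higher in glutamatergic neurons. *Hey1* reached the minimum of 50 UMIs only through the glutamatergic class, so it is not counted among them. The 37 telencephalic *Hey1* UMIs fell short of the minimum of 50, so that ratio is not among those behind the telencephalic share of 3.06%, where no member was counted. At equal depth *Hey1* was detected in 37.1% against 4.44% of these explant neurons and in 11.7% against 1.82% of the telencephalic ones, and in 3.85% and 0.505% of erythroid cells. Explant glutamatergic neurons had 1.60-fold (1.39 to 1.83) the *Hey1* of APs, and telencephalic ones 0.730-fold (0.472 to 1.08). Stricter limits raised the telencephalic level to 39.7 CPM.

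A similar difference was present before neurons were mature, between sides drawn from the gene lists that also gated these neurons. Subpallial progenitor genes were added on the GABAergic side. The GABAergic side took cells with GABAergic or subpallial progenitor genes such as *Gad1* or *Gsx2*. The glutamatergic side took cells with glutamatergic neuron genes. Explant transition cells of the glutamatergic side had 60.1 CPM of *Hey1* and those of the GABAergic side 6.29 CPM, and early neurons 63.5 and 7.37 CPM. In the other library transition cells had 20.3 and 12.4 CPM with overlapping intervals, and early neurons 25.3 CPM and no UMI in 60 cells, which allows up to 7.49 CPM (3 counts). *Hes5* went the other way in explant transition cells, with 75.5 CPM (63.2 to 89.5) on the GABAergic and 29.0 CPM (20.8 to 39.3) on the glutamatergic side, where erythroid cells had 41.2 CPM (27.8 to 58.7). The telencephalic values, 70.8 and 53.6 CPM, had overlapping intervals. Because progenitor genes count on the GABAergic side only, the sides may differ in maturity, and its part in these values was not tested. Explant neurons with *Tbr1*, a gene of early cortical glutamatergic neurons, had 45.2 CPM of *Hey1*, and of the 27 with *Slc17a6* but no *Tbr1*, 1 cell held all 4 *Hey1* UMIs.

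Among the gated neuron types, *Hes6* was highest in the Cajal-Retzius class, named after early-born neurons of the cortical surface. This class had 802 CPM (681 to 940, 17 cells) in the explants and 359 CPM (284 to 447, 33 cells) in the telencephalic library. Its gate also set an upper limit on genes of the other neuron types, so Cajal-Retzius cells rich in glutamatergic genes were left out. Early neurons had 941 and 406 CPM, with intervals that overlapped those of this class. Whether the class holds immature neurons of other types was not tested. GABAergic neurons had 346 and 122 CPM and glutamatergic neurons 216 and 104 CPM, and the latter pair had overlapping intervals in the telencephalic library only. Outside the neural lineage, *Hes1* was present in mesenchyme at 97.0 CPM (33 cells) and 109 CPM (459 cells), levels within the range of the AP regions. *Hey2* had its highest level there too, at 15.5 CPM (8 UMIs) and 10.9 CPM (8.47 to 13.7, 71 UMIs). Telencephalic endothelial cells (24) had 62.6 CPM of *Hey1* (46.0 to 83.2) and 87.9 CPM of *Hes1*. With thinned cells the *Hey1* value was 132 CPM (75.6 to 215), from 16 UMIs in 22 cells.

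Cell cycle gene sums split the APs further. *Hes1* was highest in APs low for both S and G2/M genes, at 271 CPM (124 cells) against 148 CPM in S-high and 144 CPM in G2/M-high cells of the explants. The telencephalic values were 186 (118 cells), 93.0 and 71.8 CPM. Region moved with this split, since 62 of the 124 explant cells low for both were in the septal class and 65 of the 118 telencephalic ones in the hem class. Within septal APs of the explants the order remained (402, 317 and 269 CPM), and within telencephalic hem APs it did too (217, 153 and 118 CPM), but in explant hem APs S-high cells were highest (192, 273 and 162 CPM). *Hes5* varied less, between 151 and 188 CPM in the explants and between 170 and 194 CPM in the telencephalic library.

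Within the explant pool, YFP separates the ages in part: cells with at least 3 YFP UMIs were taken as E11.5 cells, while cells with none are E12.5 cells together with E11.5 cells whose YFP was not caught. Age and genotype cannot be told apart here. *Hes1* was higher in APs without YFP UMIs than in those with at least 3, at 164 (158 to 172) against 144 CPM (139 to 148). The direction was the same in septal (346 against 273 CPM), hem (235 against 181), pallial (168 against 139), MGE (171 against 138) and subpallial APs (82.7 against 68.3), with overlapping intervals in the last 2. *Hes5* had no single direction: 187 against 157 CPM in septal and 200 against 150 CPM in subpallial APs, both with overlapping intervals, but 273 (234 to 317) against 406 CPM (372 to 441) in MGE APs.

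The other genes of the pathway were followed in the same classes. Of 19 listed Notch genes, 17 had at least 50 UMIs in explant APs and neurons together. Of these, 5 were at least 2-fold higher in APs (the receptors *Notch1*, *Notch2* and *Notch3*, the glycosyltransferase *Lfng*, and *Nrarp*, a Notch target that damps the pathway) and 5 at least 2-fold lower (the ligands *Dll1* and *Dll3*, *Mfng*, *Numbl* and *Dner*), where 17.2% and 18.4% of all genes were. The telencephalic library added *Jag1* to the former and *Jag2* to the latter, 6 and 6 of 18, where 22% and 17.2% of all genes were. The medians of the list were 0.02 and -0.15 on the log2 scale against -0.05 and 0.10 over all genes. *Nrarp* was 7.49-fold (6.47 to 8.71) and 9.16-fold (7.19 to 11.9) higher in APs than in neurons and *Notch1* 9.33-fold and 10.2-fold. In transition cells *Dll1* stood 21.0-fold (19.5 to 22.7) and 9.36-fold (8.87 to 9.87) above APs, *Dll3* 28.6-fold and 29.0-fold and *Mfng* 8.75-fold and 7.61-fold. Of 7 listed proneural genes, the 6 with at least 50 UMIs in the explants and all 7 in the telencephalic library were at least 2-fold higher in transition cells than in APs, where 4.92% and 5.88% of all genes were. Some, such as *Neurod4*, reached that minimum only through the transition class, which fixed their direction. These counts are therefore not read as a result. *Neurog2* was higher by 16.1-fold and 11.4-fold. In the MGE class, where *Hes5* was highest, *Nrarp* was 1.44-fold (1.30 to 1.59) and 2.07-fold (1.92 to 2.22) the pallial level.

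At equal depth, APs that carried a member also differed in other pathway genes. *Nrarp* was more frequent beside *Hes5*, at 66.4% against 60.1% and 30.9% against 25.1% with intervals that did not overlap, whereas beside *Hes1* it was at 64.5% against 62.1% and 27.6% against 28.0% with overlapping intervals. Telencephalic APs with *Hes6* had *Dll1* in 14.0% against 7.90% and *Neurog2* in 11.3% against 7.44%. In the explants those shares were 13.2% against 10.7% and 18.0% against 19.0%, with overlapping intervals. Regions, which differ in all these genes, were pooled in these shares. Within regions *Nrarp* was more frequent beside *Hes5* in telencephalic hem (21.0% against 13.8%) and MGE APs (46.2% against 34.0%), with intervals that did not overlap. It was not in telencephalic pallial APs (24.6% against 27.4%), and explant pallial APs had 63.8% against 60.7%, both with overlapping intervals. Explant hem (62.7% against 51.4%) and MGE APs (78.5% against 68.8%) had overlapping intervals too, as had explant septal and subpallial APs. The share was higher beside *Hes5* in each of these explant regions. Beside *Hes6*, the telencephalic intervals stayed apart for *Dll1* in hem (15.3% against 8.66%) and subpallial APs (25.9% against 10.6%) and for *Neurog2* in hem APs, where 22.2% of cells with *Hes6* had it. They overlapped for both genes in pallial, MGE and septal APs and for *Neurog2* in subpallial APs.

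The study concerned *Dbx1*, a homeobox gene of midline and ventral pallial progenitors, and the protocadherin gene *Pcdh8*, so APs were also split by these. *Hes6* was detected in 82.5% (73.4% to 89.5%) of 97 explant APs with *Dbx1* and in 64.2% of the others. Among telencephalic cells it was detected in 38.2% (28.8% to 48.4%) of 102 APs with *Dbx1* and in 26.6% of the others. Regions were pooled here too, and septal APs had *Hes6* in 85.2% and 55.9%. The MGE class was the region with enough *Dbx1* cells in both libraries, and its shares had overlapping intervals (65.2% of 23 APs against 68.5% in the explants, 30.8% of 26 against 23.6% in the telencephalic library). *Hes1*, *Hes5*, *Hey1* and *Hey2* had overlapping intervals in both libraries. With *Pcdh8*, *Hes6* was less frequent in the explants (55.3% of 181 APs against 65.6%), although in pallial APs alone the shares were 51.8% of 56 and 56.6% with overlapping intervals, while the telencephalic shares, 22.5% and 26.9%, had overlapping intervals. Among explant transition cells *Hes5* was detected in 3 of 40 with *Dbx1* (7.50%, 1.57% to 20.4%) and in 25.8% of the others, shares whose intervals overlap that of erythroid cells, and among telencephalic ones in 29.6% and 20.6% with overlapping intervals.

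Other members of the family were rare. Over all kept cells *Hes2*, *Hes3*, *Hes7* and *Heyl* had 11, 10, 30 and 9 UMIs in the explants and 1, 9, 36 and 163 in the telencephalic library. *Helt*, a relative of the Hey genes, had 85 and 352, and in the telencephalic library it was 15.7-fold higher in transition cells (13.6 CPM) than in APs (0.865 CPM).

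The genes whose levels across classes were most like each member were ranked by Pearson's r of log2(CPM + 1) over 11 explant and 15 telencephalic classes. The classes share their library, so r is a description. *Hes6* shared the most between the libraries, with 14 genes among the 50 most alike in each, among them *Dll1*, *Mfng*, *Numbl*, *Rgs16* and *Rgs8*. It was followed most closely by *Spsb4* (r = 0.952), *Chd7* (0.941) and *Rgs16* (0.913) in the explants and by *Lurap1l* (0.926), *Rgs8* (0.921) and *Rbfox3* (0.915) in the telencephalic library. *Hes5* shared 7 (*Nrarp* and *Crb2* among them), *Hes1* and *Hey2* 6 each (*Notch2* for *Hes1*, *Msx1* for *Hey2*) and *Hey1* 1 (*Med15*). The closest to *Hes5* were *Npas3* (0.971) and *Dipk1c* (0.928), to *Hes1* *Eci1* (0.956) and *Pwwp3b* (0.946), to *Hey1* *Otulin* (0.905) and *Tmem170* (0.914), and to *Hey2* *B4galt4* (0.915) and *Adamts12* (0.932), explant and telencephalic in each case. *Hes1* and *Hes5* themselves had r = 0.85 and 0.60.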

How the data were processed

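The authors deposited raw counts for both libraries, as UMIs per gene and cell barcode, made with Cell Ranger 2.1.1 (explant) and 7.1.0 (telencephalic) on mm10 per the labels; the annotation and the use of intronic reads are not given in the sources used here, and kit, age and dissection differ too. The files held 5827 barcodes and 83103280 UMIs (explant) and 14283 barcodes and 194821794 UMIs (telencephalic). Barcodes more than 3 median absolute deviations from the median mitochondrial share, in either direction, were removed (383 and 1812). Scrublet doublets were removed too (scanpy 1.11.5, with 60, or 1.10%, and 713, or 5.72%). Neural cells needed at least 2000 UMIs, a limit not set for the non-neural classes. Cells were gated on UMIs of marker lists per 10000 UMIs. Class sums were given as CPM with exact Poisson intervals, shares with exact Clopper-Pearson intervals and ratios with exact conditional binomial intervals (scipy 1.17.1), at 95%. With 1 library per condition no test was made. Ratios over all genes used those with at least 50 UMIs in both classes together, and a ratio of at least 2 was counted, after 0.5 UMI was added to each sum. Shares used cells thinned to 8000 or 5500 UMIs, which left out 410 of 4810 explant and 1193 of 9978 telencephalic gated cells. Cell cycle classes were cut at 20 S and 40 G2/M list UMIs per 10000, with both under 10 called low. Genes named beyond the members came from fixed Notch, proneural and family lists, and from the 3 genes of highest Pearson correlation with each member among those with at least 500 UMIs over the classes; the examples from the genes shared by the 50 most alike in both libraries, such as *Med15* and *Msx1*, were chosen after their values were seen. RefSeq windows were searched for GTGGGAA and TTCCCAC, which cannot overlap as the same site. Summing and intervals were tested on simulated data. Alternatives were all deposited barcodes, Leiden clusters in place of gates, stricter gate limits, thinned cells, other bin numbers and at least 2 UMIs for detection. The members, lists and limits were chosen with earlier results of these data known. 1 gene of the proneural list is not reported here by name.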

Additional observations from a re-analysis of the deposited data

Results flagged for a closer look

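The order of septal and pallial APs differed between the libraries for *Hes5*, with a log2 ratio of CPM of 0.48 in the explant library and -0.97 in the telencephalic library. The order of MGE and pallial APs differed for *Hes6*, at 0.37 and -0.28 on the same scale. With 1 library each, neither difference between libraries was tested.

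Sequences outside the comparisons also gave UMIs. IRESCRE, a Cre transgene sequence in the explant reference, had 27 UMIs in 25 barcodes, and LacZ, in the telencephalic reference, had 11 UMIs in 9 barcodes, although the labels name no lacZ allele for those embryos.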

How the results depend on the processing

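No paired analysis was possible because each condition was 1 library, and for the same reason no replicate could be left out. The order of AP over neuron kept its direction for all 5 members under every alternative that gave a value; the log2 ratio of explant *Hey2* had none with thinned cells, where no neuronal UMI was left. In the explant library *Hes6* moved from -0.93 to -0.42 with clusters and -1.30 with stricter limits, and *Hey1* from 0.44 to 0.15 with clusters. In the telencephalic library *Hes1* moved from 3.72 to 3.33 with all barcodes and 4.13 with stricter limits, *Hes5* from 3.75 to 4.18 with stricter limits, *Hes6* from -0.93 to -0.52 with clusters, -1.28 with stricter limits and -1.04 with thinned cells, and *Hey1* from 1.66 to 0.91 with clusters. Where the main interval did not include equality, signs turned in 4 values. Sign changes of other ratios are not counted here. Explant *Hes5*, septal over pallial AP, went from 0.48 to -0.05 with stricter limits. Telencephalic *Hey1*, hem over pallial AP, went from 0.18 to -0.02 with clusters, -0.13 with stricter limits and -0.03 with thinned cells. The cause was not tested. Telencephalic clusters gave no septal, subpallial or glutamatergic neuron class. Of the class levels, 17 of 125 moved beyond 1.5 times with clusters, 8 of 150 with all barcodes, 24 of 140 with stricter limits and 21 of 150 with thinned cells. More moved past the counting interval of the main value: 47, 10, 63 and 41 in the same order. The ratio of transition cells to APs moved past its interval in 8 cases with clusters and stayed within in 2. Asking for at least 2 UMIs moved 137 detection shares past their intervals and left 13 within. The region with the highest level, *Hey2* left out, was the same in 27 of 32 comparisons. The exceptions were telencephalic, *Hes1* and *Hes6* with clusters and *Hey1* with clusters, stricter limits and thinned cells. With 20 bins telencephalic *Hes5* and *Hey2* were highest in bin 3 rather than in the first. Levels of *Hey2*, with 64 and 99 AP UMIs, are limited by counting error.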
